A study of Mus musculus with 7 samples.

Results

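The proteasome is the protease complex that breaks down ubiquitin-tagged proteins, and the data describe how its subunit genes were expressed in colon macrophages of Rictor-floxed mice with and without LysM-driven cre. Members were the genes named Psma, Psmb, Psmc or Psmd followed by a number, leaving out the 3 immunoproteasome genes Psmb8, Psmb9 and Psmb10. The rule found 36 genes among the 22180 genes tested. Of these, 30 encode subunits of the constitutive 26S particle, with 13 in the core, 9 in the base and 8 in the lid. Another 3 (Psmd5, Psmd9 and Psmd10) encode chaperones that help to assemble the base. Psma8 and Psmb11 encode core subunits known from testis and from thymic epithelium. Psmc3ip matches the name pattern only and encodes a recombination cofactor that is not a proteasome subunit. Psma4, the remaining gene of the alpha ring, was not analysed here, because its probe sets list several symbols.

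The tested mice were Rictor fl/fl with 1 cre-carrying LysM (Lyz2) allele (LysM+/cre, 4 samples), and the controls were Rictor fl/fl with 2 unmodified LysM alleles (LysM+/+, 3 samples). Colitis was induced in all of them with 5% dextran sulphate sodium, which damages the epithelial lining of the colon, over 5 days, and plain water was then given for 3 days. Macrophages were sorted from the digested lamina propria as CD45+, CD11b+, CD64+, MHCII+ and Ly6C- cells, and RNA of each sample was hybridised to 1 Affymetrix Mouse Gene 2.0 ST array. LysM-driven cre is active in myeloid cells, neutrophils included. No group carried cre without floxed Rictor, so effects of Rictor loss, of cre and of its insertion into Lyz2 cannot be told apart. The labels do not say whether a sample pooled animals, and p-values measure only the spread between these samples.

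In the core particle, 2 outer rings of alpha subunits gate a chamber formed by 2 inner rings of beta subunits, where Psmb5, Psmb6 and Psmb7 carry the proteolytic sites. The base holds a ring of ATPases that unfold substrates and thread them into the core, together with subunits that receive ubiquitin. The lid holds the deubiquitinase Psmd14, which removes ubiquitin chains as substrates enter. In macrophages the complex also degrades the inhibitor of NF-kB and makes peptides for MHC class I, and after interferon its catalytic subunits are partly replaced by those of the immunoproteasome.

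Array medians lay between 5.16 and 5.22 on the log2 scale, and the correlation of profiles over all probe sets was 0.972 to 0.982 for pairs of one genotype and 0.968 to 0.977 for mixed pairs. Rictor averaged 7.88 ± 0.25 in LysM+/cre samples (SD, n = 4) and 7.76 ± 0.030 in LysM+/+ samples (SD, n = 3), so its probe set did not separate the genotypes. Where this probe set lies relative to the floxed exon is not stated in the labels or files used, so it does not check the genotypes. Genes of the sort gate were bright, with Itgam (CD11b) at 11.99 in LysM+/cre samples and 11.47 in LysM+/+ samples, and Fcgr1 (CD64) at 10.73 in LysM+/cre samples and 9.75 in LysM+/+ samples. Precision was limited by the number of arrays.

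Proteasome genes were mostly higher in LysM+/cre macrophages, by small amounts. Of the 36 genes, 32 had a positive log2 difference (LysM+/cre minus LysM+/+), where 51.3% of all genes did. The median difference was 0.32, a 1.25-fold level, against 0.0044 for all genes. In limma 23 of the 36 were higher at an unadjusted p under 0.05, and 6.56% of all genes were. None was lower at that threshold, where 4.93% of all genes were. None passed an adjusted p of 0.05, and neither did any other gene (0.0% of all genes). The smallest adjusted p among the 36 was 0.341, for Psmd3. Of the 30 constitutive subunits, 21 were higher at an unadjusted p under 0.05 and 28 had a positive difference. All but Psma5 of these 30 lay above the median gene in level, and among genes above the median 11.5% were higher at that threshold and 56.1% had a positive difference. The differences of the 36 ran from -0.17 for Psma8 to 0.65 for Psmb5.

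**Figure D1:**
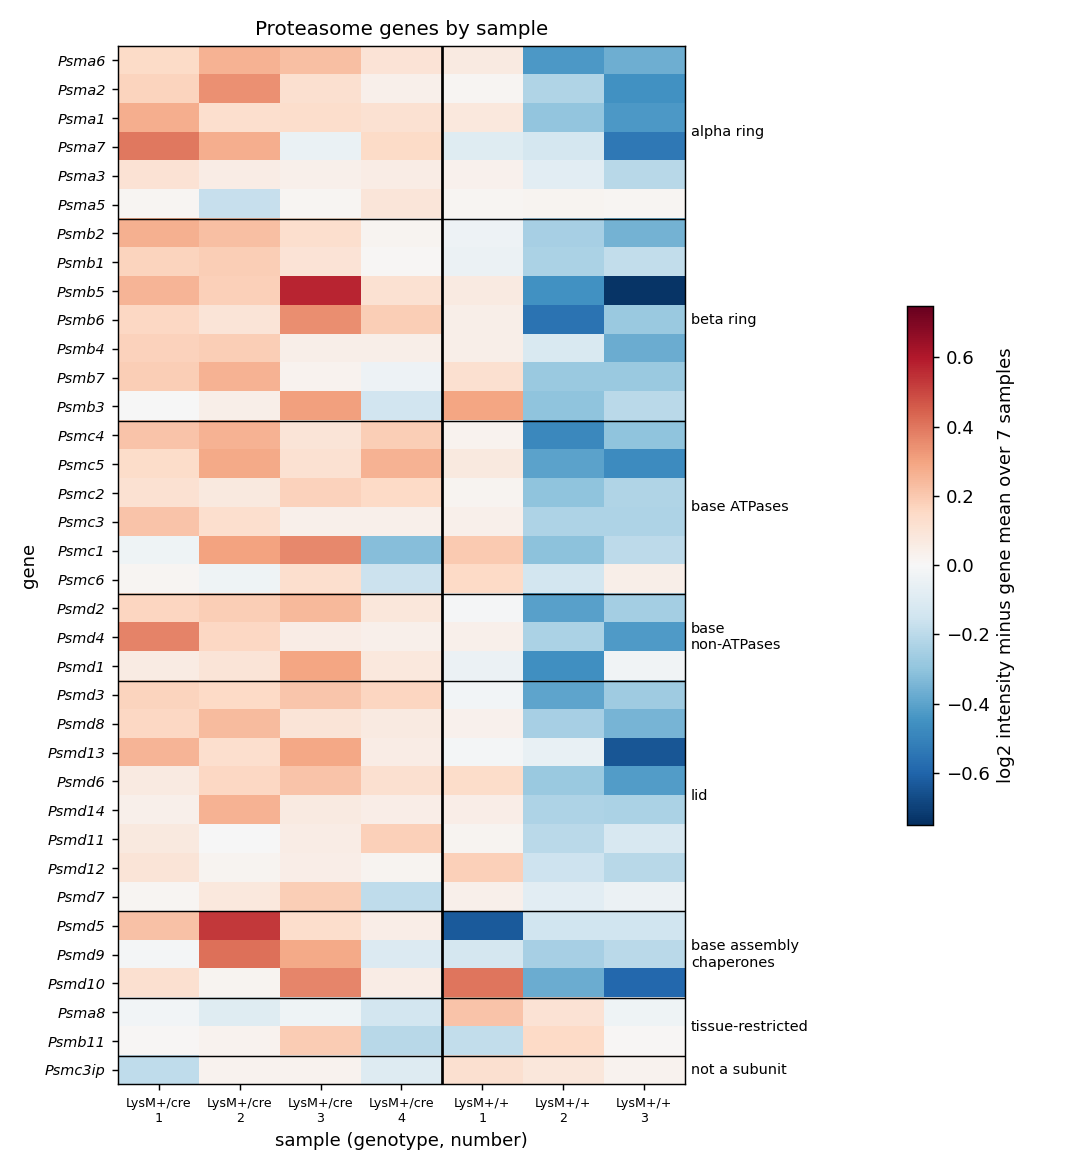
Log2 intensity of each of the 36 genes in each sample, as the deviation from the gene's mean over 7 samples (colour, red above and blue below), with the 4 LysM+/cre samples on the left and the 3 LysM+/+ samples on the right. LysM+/+ samples 2 and 3 are blue for most subunits, and LysM+/+ sample 1 is pale, near the LysM+/cre samples.

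The contrast did not rest equally on the 3 control samples. Averaged over the 30 constitutive subunits, the deviation from the gene means was 0.15, 0.15, 0.16 and 0.051 in LysM+/cre samples 1 to 4, against 0.051, -0.27 and -0.29 in LysM+/+ samples 1 to 3. LysM+/+ sample 1 thus stood level with LysM+/cre sample 4, while LysM+/+ samples 2 and 3 were low. The lowest of all 7 samples was LysM+/+ sample 3 for 16 of the 30 subunits and LysM+/+ sample 2 for 10, and it was LysM+/+ sample 1 for 0. Over all genes those samples were lowest for 19.0%, 16.2% and 12.4%. The genotypes did not overlap, with LysM+/cre higher, for 21 of the 36 genes, as for 5.23% of all genes, and with LysM+/cre lower for 0, as for 3.56% of all genes. In 12 of these 21 the lowest LysM+/cre and the highest LysM+/+ sample were less than 0.05 apart, and in 19 the highest control was LysM+/+ sample 1. Without LysM+/+ sample 3 the median difference of the 36 genes was 0.23 and the count higher at an unadjusted p under 0.05 was 12 (4.55% of all genes). That count was 15 without LysM+/+ sample 2 (5.46% of all genes) and 27 without LysM+/+ sample 1 (7.02%). It was also 15 without LysM+/cre sample 1 (4.4%) and 15 without LysM+/cre sample 2 (5.24%).

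**Figure D2:**
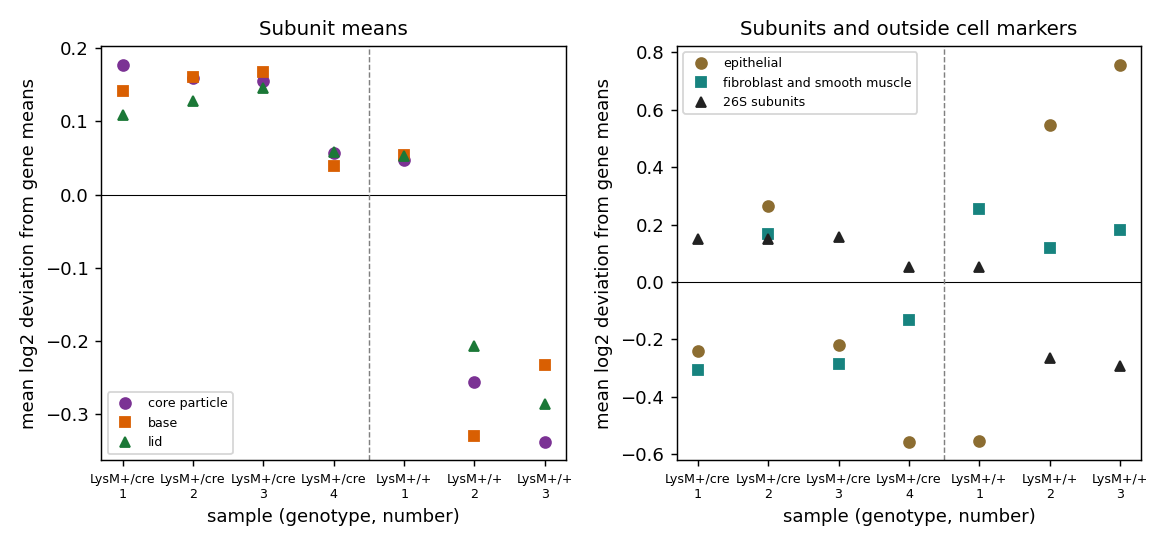
Mean log2 deviation from the gene means in each sample, LysM+/cre left of the dashed line and LysM+/+ right of it. The left panel shows core, base and lid subunits, which are all below 0 in LysM+/+ samples 2 and 3 only; the right panel sets the 30 subunits against epithelial and fibroblast marker lists, with the epithelial list highest in those same samples.

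Differences of core, base and lid subunits overlapped. The median log2 difference was 0.37 over 13 core subunits, 0.31 over 9 base subunits and 0.29 over 8 lid subunits, and differences ranged from -0.031 to 0.65 in the core, from -0.031 to 0.47 in the base and from 0.050 to 0.42 in the lid. Within the core the median was 0.38 over 6 alpha ring genes and 0.27 over 7 beta ring genes, the latter below that of the lid. At an unadjusted p under 0.05, 9 of 13 core, 7 of 9 base and 5 of 8 lid subunits were higher (6.56% of all genes). The mean deviation of the core minus that of the lid was 0.068, 0.031, 0.0088 and -0.0017 in LysM+/cre samples 1 to 4, against -0.0054, -0.050 and -0.051 in LysM+/+ samples 1 to 3. These gaps between subcomplexes were small beside the 0.32 median genotype difference, and they were not tested.

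**Figure D3:**
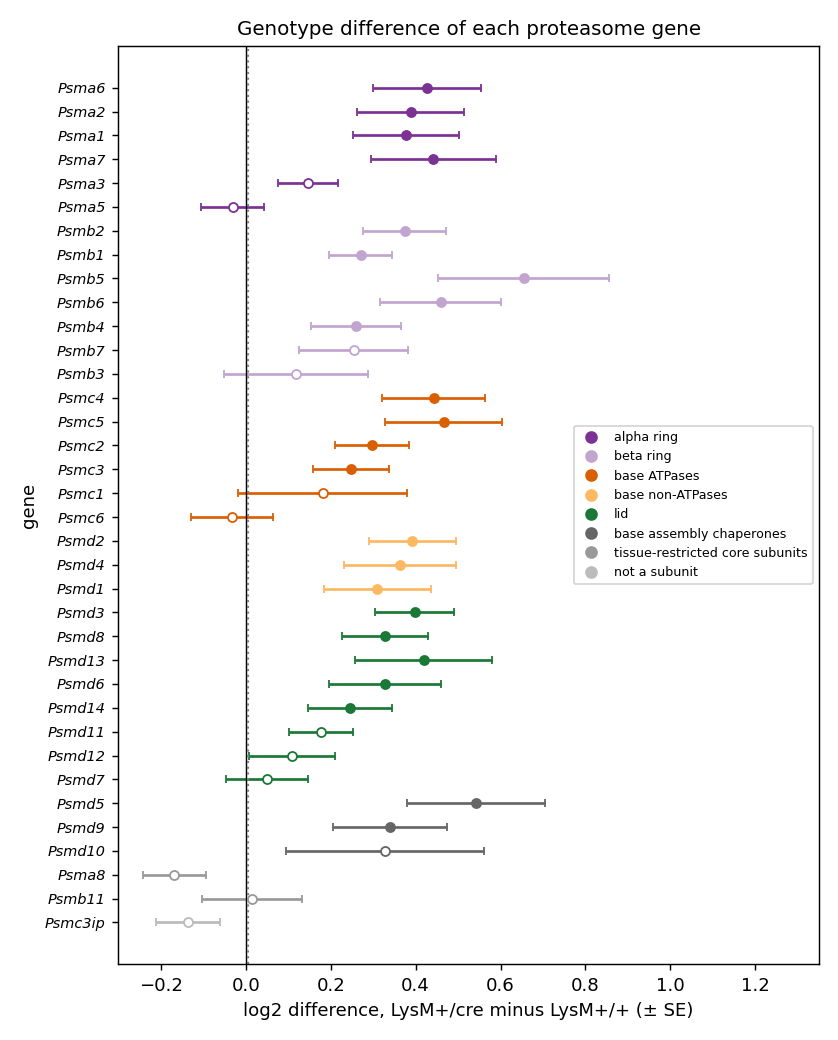
Log2 difference of each gene (horizontal axis, LysM+/cre minus LysM+/+, bars are the limma SE), with filled points at an unadjusted p under 0.05 and a dotted line at the median of all genes, 0.0044. The 23 filled points all lie right of 0, and Psmb5 is farthest right at 0.65.

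Of the 6 alpha ring genes measured, 4 were higher at an unadjusted p under 0.05 (6.56% of all genes). Psma6 had log2 intensities of 10.56, 10.68, 10.64 and 10.52 in LysM+/cre samples 1 to 4, against 10.48, 9.98 and 10.05 in LysM+/+ samples 1 to 3. LysM+/+ sample 1 lay just under the lowest LysM+/cre sample and the other controls lay well below, a difference of 0.43 ± 0.13 (SE, adjusted p = 0.394). Psma2 had 9.33, 9.50, 9.28 and 9.20 in LysM+/cre samples, against 9.17, 8.93 and 8.70 in LysM+/+ samples, a difference of 0.39 ± 0.13 (SE). Psma1 had 10.19, 10.05, 10.05 and 10.03 in LysM+/cre samples, against 9.999, 9.62 and 9.49 in LysM+/+ samples, a difference of 0.38 ± 0.12 (SE). In both genes LysM+/+ sample 3 was lowest and LysM+/+ sample 1 lay just under the LysM+/cre range. The difference was 0.44 for Psma7 (unadjusted p = 0.0201) and 0.15 for Psma3 (unadjusted p = 0.0773). Psma5 was dim, at 4.64 ± 0.11 in LysM+/cre samples (SD, n = 4) and 4.67 ± 0.0022 in LysM+/+ samples (SD, n = 3), below the median gene at 5.55. Its second probe set, dimmer still, differed by 0.20 against -0.031 for the one used, so the 2 did not share a direction.

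All 7 constitutive beta ring genes had positive differences, and 5 were higher at an unadjusted p under 0.05 (6.56% of all genes). Psmb5, which carries the chymotrypsin-like site and is the target of bortezomib, had 10.35, 10.28, 10.67 and 10.21 in LysM+/cre samples, against 10.16, 9.64 and 9.36 in LysM+/+ samples. It was 1.57-fold higher, a log2 difference of 0.65 ± 0.20 (SE, adjusted p = 0.395), with LysM+/cre sample 3 the highest and LysM+/+ sample 3 the lowest of the 7. Leaving out 1 sample at a time gave 0.47 to 0.87. Psmb6, which carries the caspase-like site, had 9.95, 9.90, 10.15 and 9.99 in LysM+/cre samples, against 9.84, 9.25 and 9.52 in LysM+/+ samples, a difference of 0.46 ± 0.14 (SE, adjusted p = 0.396). Psmb7, which carries the trypsin-like site, had 9.91, 9.99, 9.76 and 9.69 in LysM+/cre samples, against 9.85, 9.45 and 9.45 in LysM+/+ samples. There LysM+/+ sample 1 lay inside the LysM+/cre range and the difference was 0.25 ± 0.13 (SE, unadjusted p = 0.0876).

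The other 4 beta ring genes encode subunits without a proteolytic site. Psmb2 had 10.56, 10.52, 10.42 and 10.31 in LysM+/cre samples, against 10.25, 10.04 and 9.94 in LysM+/+ samples, a difference of 0.37 ± 0.098 (SE, adjusted p = 0.362). Psmb1 had 10.78, 10.80, 10.72 and 10.63 in LysM+/cre samples, against 10.57, 10.38 and 10.43 in LysM+/+ samples, a difference of 0.27 ± 0.075 (SE, adjusted p = 0.376). Both genes kept every LysM+/cre sample above every control. Psmb4 differed by 0.26 and Psmb3, near the median gene in level, by 0.12 ± 0.17 (SE).

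Transcription of proteasome genes is known to be raised as a group by NFE2L1, a membrane-anchored factor that binds antioxidant response elements when proteasome activity is short. Promoter windows of 250 bases before to 50 after the start site, from RefSeq on GRCm38.p6, were listed for 29 of the 36 genes. The element core TGACNNNGC was searched on both strands, and CCAAT, the box bound by NF-Y, likewise. At least 1 window held TGACNNNGC in 5 of the 29 genes (17.2%), and 14.9% of all 16990 genes with a listed window had it. CCAAT was present in 13 of 29 genes (44.8%), against 41.6% of all genes with a window. Both shares were close to those of all genes. Constitutive subunits with TGACNNNGC had a median difference of 0.28 (n = 4) and those without it 0.33 (n = 20). The windows below are those of the named genes that held the element. Naming went largely by small unadjusted p, so these windows do not represent all holders. Psmb5 and Psmb6 are the catalytic subunits with the larger differences and Psmd9 is one of the assembly chaperones. The element was also held by Psmc6 and Psmd12, which differed by -0.031 and 0.11 and are not shown. Capitals mark the match, which is TGACGTCGC in Psmb5, TGACGGAGC in Psmb6 and TGACCCCGC in Psmd9, at -47, -9 and -31 from the start site, counted to the first base of the match. Each is written 5′ to 3′ on the strand of the gene.
Psmb5 (chr14:54617946-54618245, minus strand): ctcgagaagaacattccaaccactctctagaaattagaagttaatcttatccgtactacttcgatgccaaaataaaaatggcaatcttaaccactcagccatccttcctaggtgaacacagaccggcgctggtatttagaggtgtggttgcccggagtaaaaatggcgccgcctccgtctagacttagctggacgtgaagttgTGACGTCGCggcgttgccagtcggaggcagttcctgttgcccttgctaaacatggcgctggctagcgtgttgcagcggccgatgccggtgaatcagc
Psmb6 (chr11:70525107-70525406, plus strand): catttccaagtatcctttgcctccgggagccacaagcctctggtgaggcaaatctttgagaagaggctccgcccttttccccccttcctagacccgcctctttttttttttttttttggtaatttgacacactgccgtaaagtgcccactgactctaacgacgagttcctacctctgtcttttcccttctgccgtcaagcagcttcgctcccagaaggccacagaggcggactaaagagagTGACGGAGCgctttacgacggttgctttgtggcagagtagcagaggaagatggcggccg
Psmd9 (chr5:123227940-123228239, plus strand): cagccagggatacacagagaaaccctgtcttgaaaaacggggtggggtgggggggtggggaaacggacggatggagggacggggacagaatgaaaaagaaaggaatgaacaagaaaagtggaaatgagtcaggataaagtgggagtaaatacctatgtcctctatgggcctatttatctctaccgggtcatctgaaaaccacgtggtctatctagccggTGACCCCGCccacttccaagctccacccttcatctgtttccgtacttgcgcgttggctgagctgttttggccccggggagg

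Of the 6 ATPases of the base, 4 were higher at an unadjusted p under 0.05 (6.56% of all genes). Psmc4 had 9.36, 9.41, 9.24 and 9.33 in LysM+/cre samples, against 9.17, 8.66 and 8.84 in LysM+/+ samples, a difference of 0.44 ± 0.12 (SE, adjusted p = 0.376). Psmc5 had 9.11, 9.25, 9.08 and 9.23 in LysM+/cre samples, against 9.04, 8.57 and 8.50 in LysM+/+ samples, a difference of 0.47 ± 0.14 (SE, adjusted p = 0.394). In both, LysM+/+ sample 1 lay just under the LysM+/cre range and the other controls lay clearly lower. Psmc2 had 8.67, 8.63, 8.73 and 8.71 in LysM+/cre samples, against 8.58, 8.25 and 8.33 in LysM+/+ samples, a difference of 0.30 ± 0.088 (SE). A second, dimmer probe set of Psmc2 differed by 0.16, with overlap. The ring was not uniform, since Psmc3 differed by 0.25 (unadjusted p = 0.0292), Psmc1 by 0.18 ± 0.20 (SE) and Psmc6 by -0.031 ± 0.097 (SE). For Psmc6 the highest of the 7 samples was LysM+/+ sample 1 at 9.60, and LysM+/cre sample 4 was lowest at 9.29.

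All 3 non-ATPase subunits of the base were higher at an unadjusted p under 0.05 (6.56% of all genes). Psmd2, a scaffold that docks ubiquitin shuttles and the deubiquitinase Usp14, had 9.74, 9.77, 9.83 and 9.67 in LysM+/cre samples, against 9.58, 9.17 and 9.33 in LysM+/+ samples. The groups were apart, by 0.39 ± 0.10 (SE, adjusted p = 0.362). Psmd4, a ubiquitin receptor, had 8.07, 7.85, 7.75 and 7.73 in LysM+/cre samples, against 7.73, 7.46 and 7.27 in LysM+/+ samples, a difference of 0.36 ± 0.13 (SE). The groups nearly touched, at 7.735 in LysM+/cre sample 4 and 7.732 in LysM+/+ sample 1. Psmd1, the other large scaffold, had 8.59, 8.62, 8.82 and 8.60 in LysM+/cre samples, against 8.48, 8.06 and 8.50 in LysM+/+ samples, a difference of 0.31 ± 0.13 (SE). Here LysM+/+ sample 2 alone was far below the rest.

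All 8 lid genes had positive differences, and 5 were higher at an unadjusted p under 0.05 (6.56% of all genes). Psmd3, a structural lid subunit, had 8.84, 8.82, 8.88 and 8.83 in LysM+/cre samples, against 8.65, 8.27 and 8.40 in LysM+/+ samples. Its LysM+/cre samples were the tightest of the lid, and the difference of 0.40 ± 0.092 (SE) ranged from 0.31 to 0.50 when 1 sample was left out. Psmd8 had 10.27, 10.35, 10.21 and 10.18 in LysM+/cre samples, against 10.15, 9.87 and 9.77 in LysM+/+ samples, a difference of 0.33 ± 0.10 (SE, adjusted p = 0.396). Psmd13 had 7.50, 7.37, 7.53 and 7.30 in LysM+/cre samples, against 7.23, 7.18 and 6.60 in LysM+/+ samples, a difference of 0.42 ± 0.16 (SE) with LysM+/+ sample 3 far below the rest. Psmd14, the deubiquitinase, had 8.81, 9.03, 8.84 and 8.82 in LysM+/cre samples, against 8.82, 8.54 and 8.53 in LysM+/+ samples. LysM+/+ sample 1 lay inside the LysM+/cre range, and the difference was 0.24 ± 0.099 (SE, adjusted p = 0.427). The difference was 0.33 for Psmd6, 0.18 for Psmd11, 0.11 for Psmd12 and 0.050 for Psmd7, and the samples of the genotypes overlapped in these 4 genes. Sem1, a small lid subunit outside the name pattern, differed by 0.36 ± 0.11 (SE).

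The 3 assembly chaperones of the base had differences of 0.33 to 0.54, but their samples were ordered differently. Psmd5 had 7.37, 7.68, 7.28 and 7.19 in LysM+/cre samples, against 6.51, 6.99 and 6.998 in LysM+/+ samples, a difference of 0.54 ± 0.16 (SE, adjusted p = 0.394). Its lowest sample was LysM+/+ sample 1, the control that lay near the LysM+/cre samples for most subunits. Psmd9 had 6.62, 7.05, 6.92 and 6.53 in LysM+/cre samples, against 6.50, 6.38 and 6.43 in LysM+/+ samples, a difference of 0.34 ± 0.13 (SE). Psmd10 (gankyrin, which also binds the retinoblastoma protein) had 8.58, 8.48, 8.83 and 8.52 in LysM+/cre samples, against 8.86, 8.09 and 7.87 in LysM+/+ samples. Its highest and its lowest sample were both controls, and the difference of 0.33 ± 0.23 (SE) was not called. The 3 remaining members, neither constitutive subunits nor assembly chaperones, lay on the other side or near 0. Psma8 differed by -0.17 ± 0.075 (SE), Psmb11 by 0.014 ± 0.12 (SE) and Psmc3ip by -0.14 ± 0.075 (SE), all at levels near or below the median gene.

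Values of regulators and partners of the proteasome varied by list. For the counts below, 6.56% of all genes were higher at an unadjusted p under 0.05. The 3 immunoproteasome genes differed by 0.62 to 0.90, with 2 at an unadjusted p under 0.05, and their mean deviation was 0.86, 0.31, -0.30 and 0.41 in LysM+/cre samples against -0.29, -0.36 and -0.64 in LysM+/+ samples. LysM+/cre sample 3, high for constitutive subunits, was thus the lowest LysM+/cre sample for these. Of 5 activator and inhibitor genes, 2 were higher at an unadjusted p under 0.05. They were Psme3, of the nuclear activator, at 0.28 ± 0.078 (SE), and Psme1, of the interferon-induced activator, at 0.49 ± 0.18 (SE). The activator genes Psme2 and Psme4 differed by only 0.032 ± 0.14 (SE) and 0.018 ± 0.071 (SE), and the inhibitor gene Psmf1 by 0.079 ± 0.14 (SE). The 5 core assembly chaperones had a median difference of 0.27, with 1 at an unadjusted p under 0.05. Psmg1 differed by 0.32 ± 0.13 (SE), Pomp, which matures the beta ring, by 0.47 ± 0.21 (SE), and Psmg4 by 0.27 ± 0.16 (SE).

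Among 11 enzymes and shuttles that bind the proteasome, 2 were higher and 1 lower at an unadjusted p under 0.05. Over all genes 6.56% were higher and 4.93% lower at that threshold, which is used for each list here. Rad23b, a shuttle for ubiquitinated proteins, differed by 0.25 ± 0.068 (SE), the ubiquitin ligase Ube3c by 0.20 ± 0.079 (SE), and Zfand5, a proteasome-binding zinc finger protein, by -0.26 ± 0.097 (SE). Of 9 genes for the unfoldase p97 and its cofactors, 3 were higher and 0 lower, namely Vcp (p97 itself) at 0.34, Faf2 at 0.26 and Nsfl1c at 0.24. Of 6 listed genes for ubiquitin and its activating enzymes, only the enzyme gene Uba6 was analysed, at 0.20 ± 0.089 (SE). The others had no probe set listed under exactly 1 symbol. In the NFE2L1 and NFE2L2 list 1 of 8 genes was higher and 1 lower. Nfe2l2, the oxidative stress factor, had 10.70, 10.62, 10.62 and 10.78 in LysM+/cre samples, against 10.51, 10.36 and 10.46 in LysM+/+ samples, a difference of 0.23 ± 0.068 (SE). Bach1, a repressor at the same elements, had 9.61, 9.72, 9.43 and 9.83 in LysM+/cre samples, against 9.86, 10.24 and 9.85 in LysM+/+ samples, a difference of -0.33 ± 0.13 (SE). Mafg differed by -0.22 ± 0.13 (SE). Nfe2l1, named here after its value was seen, averaged 8.50 ± 0.13 in LysM+/cre samples (SD, n = 4) and 8.55 ± 0.075 in LysM+/+ samples (SD, n = 3).

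The COP9 signalosome is a complex related to the lid that removes NEDD8 from cullin ligases. It had 5 of 9 genes higher at an unadjusted p under 0.05 (6.56% of all genes) and a median difference of 0.24. Cops6 had 10.04, 9.81, 9.67 and 9.79 in LysM+/cre samples, against 9.42, 9.28 and 9.09 in LysM+/+ samples, a difference of 0.56 ± 0.11 (SE, adjusted p = 0.328). All 3 controls were well below the LysM+/cre range there, LysM+/+ sample 1 included. Cops4 differed by 0.61 ± 0.19 (SE) and Cops5, the catalytic subunit and a homolog of Psmd14, by 0.32 ± 0.10 (SE).

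**Figure D4:**
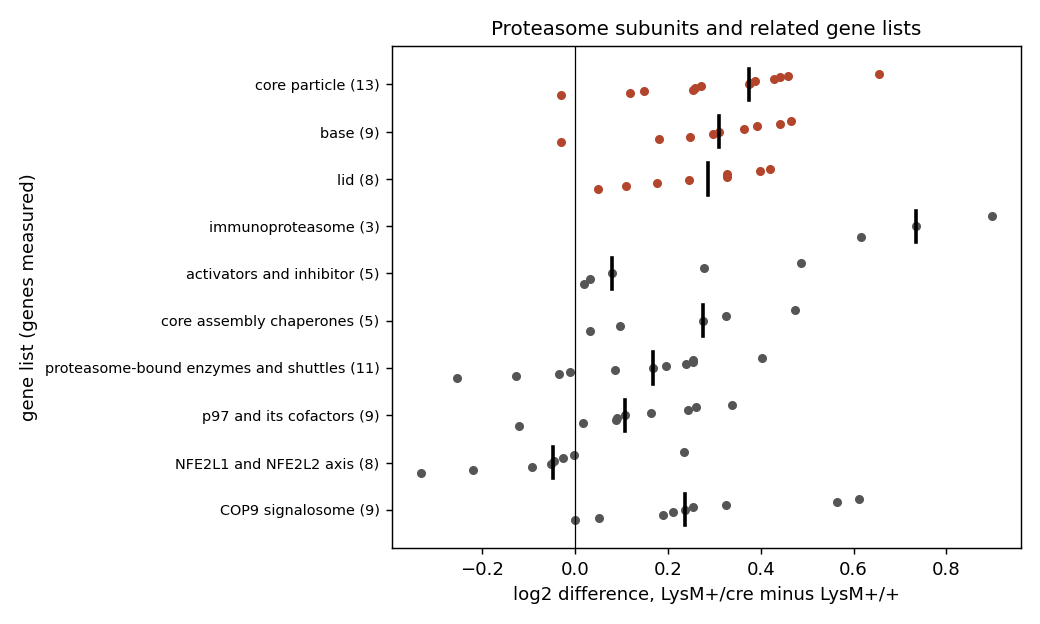
Log2 difference (LysM+/cre minus LysM+/+) of each gene of the core, base and lid and of 7 related lists, 1 point per gene, with a black bar at each list's median. Medians run from -0.048 for the NFE2L1 and NFE2L2 list to 0.73 for the immunoproteasome.

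Markers of cells outside the gate differed between the samples. The mean deviation of 20 epithelial genes was -0.24, 0.26, -0.22 and -0.56 in LysM+/cre samples, against -0.55, 0.55 and 0.76 in LysM+/+ samples, so the list was highest in the same control samples in which proteasome subunits were low. Epcam, a defining epithelial gene, was at 7.16 in LysM+/cre samples and 7.30 in LysM+/+ samples, and 4 of 20 were lower at an unadjusted p under 0.05. Over all genes 4.93% were lower and 6.56% higher at that threshold. The mean deviation of 20 fibroblast and smooth muscle genes was -0.31, 0.17, -0.29 and -0.13 in LysM+/cre samples, against 0.25, 0.12 and 0.18 in LysM+/+ samples, and 6 of 20 were lower. With the epithelial score as a covariate the median difference of the 36 proteasome genes was 0.23, with 14 higher at an unadjusted p under 0.05 (4.63% of all genes). With the fibroblast score it was 0.35, with 12 higher (3.95% of all genes). The mean deviation of 15 neutrophil genes was -0.26, 0.33, 1.41 and -0.21 in LysM+/cre samples, against 0.41, -1.46 and -0.22 in LysM+/+ samples, and its part in the result was not tested. The median difference was -0.19 over 15 endothelial genes and -0.30 over 9 dendritic cell genes, with 0 past an unadjusted p of 0.05. For 11 T and NK cell genes it was -0.044, with 1 higher and 1 lower. For 9 B and plasma cell genes it was 0.11, with 1 higher. The part of these lists was not tested either. Of 14 macrophage genes, 2 were higher and 1 lower at an unadjusted p under 0.05, with a median difference of -0.0064. The higher ones were the gate genes Fcgr1, by 0.97 ± 0.26 (SE), and Itgam, by 0.53 ± 0.19 (SE), and the lower one was Cd68, by -0.20. Other gate genes differed by 0.25 (Ptprc), -0.058 (H2-Aa) and -0.044 (H2-Ab1). In a sorted bulk sample, fewer cells of a type and less RNA per cell cannot be told apart.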

How the data were processed

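The authors deposited 1 log2 intensity for each probe set and array, and per the labels' design text they used Affymetrix Expression Console. The submitters' processing notes also list Transcriptome Analysis Console. How probes were summarised and corrected for background, and the software versions, were not stated. Nearly equal array medians show a common scale, on which a change common to every gene could not be seen. Names came from the platform's annotation: 23521 of 41345 had exactly 1 symbol, and per gene the one of highest mean over the 7 arrays was kept, leaving 22180 genes. The genotype difference was fitted by limma 3.58.1 (lmFit and eBayes under R 4.3.3), two-sided, without covariates or a filter, with Benjamini-Hochberg adjustment over all genes. In 20 simulated data sets of these 22180 genes, 83.8% of 2-fold and 98.1% of 4-fold changes were recovered at an adjusted p under 0.05. Changes as small as the 1.25-fold median of the proteasome genes were not simulated, so recovery at that size is unknown. Noise was drawn independently for each gene, unlike subunits that moved together by sample. Its size came from variances that limma had already drawn towards a common value, so recovery may be overstated for the noisiest genes.

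Members and lists were chosen with earlier results of these data known. Named genes were the 3 of smallest unadjusted p per subcomplex and per related list, the catalytic subunits, Psmd14 and Rictor. Promoters were read from RefSeq (GRCm38.p6). Alternatives covered scaling, a filter on dim genes, probe set means, variance models, array weights, marker scores as covariates, a replicate block and leaving out each sample.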

Additional observations from a re-analysis of the deposited data

Results flagged for a closer look

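In the LysM+/cre group of 4, 1 sample stood apart from the other 3 for 4 of 63 genes or subcomplex means examined, by a large ratio of its gap to the group's range. Chance flags about 1 in 20. Psma1 was 10.19 in LysM+/cre sample 1 against 10.03 to 10.05 in the others. Psmd1 was 8.82 in LysM+/cre sample 3 against 8.59 to 8.62, and Rictor was 8.25 in the same sample against 7.72 to 7.80. Psmd14 was 9.03 in LysM+/cre sample 2 against 8.81 to 8.84. These belonged to 3 different samples, and in the 3 proteasome genes the sample that stood apart was the highest of all 7.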

How the results depend on the processing

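The 21 named proteasome genes kept a positive difference in all 357 values from 17 alternatives. Most of the 21 were picked for a small unadjusted p in these data, and a change of variance model leaves differences as they are. The stable sign is therefore no separate support. No proteasome gene passed an adjusted p of 0.05 under any alternative (smallest 0.123). Leaving out 1 sample at a time gave 12 to 27 of the 36 genes higher at an unadjusted p under 0.05, 30 to 33 with a positive difference and 11 to 25 of the 30 constitutive subunits higher. Over all genes the share higher in these fits ran from 4.4% to 7.02%. The median differences then ran from 0.23 to 0.39 for all 36 genes, 0.27 to 0.46 for the core, 0.23 to 0.39 for the base and 0.20 to 0.39 for the lid, and 0 genes in all passed the adjusted threshold. With the fibroblast score as a covariate 12 of 36 genes and 10 of 30 subunits were higher (3.95% of all genes). With the epithelial score 14 and 12 were higher (4.63% of all genes), and the cause was not tested. A per-gene variance without moderation let 2 genes in all pass the adjusted p, none of them a proteasome gene. The core had the highest median of the subcomplexes in 17 of 18 settings and the lid the lowest in 16. These settings reuse the same arrays, and some leave the medians unchanged, so the counts do not test the order. Psma8 was lower at an unadjusted p under 0.05 with array weights, with the epithelial score and without LysM+/+ sample 3. The sign turned for Psmf1 without LysM+/cre sample 1 (range -0.032 to 0.19 with 1 sample left out), and for Rictor with the fibroblast score (-0.015) and without LysM+/cre sample 3 (range -0.0040 to 0.17), none of them called.

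Correlations of deviations between samples with the same number were -0.115, 0.121 and 0.103 for numbers 1 to 3. Those of samples with different numbers ran from -0.311 to 0.239. The labels do not say whether samples with the same number were paired, and so few pairs cannot settle it. With the replicate number as a block the median was 0.33 and 20 of the 36 genes were higher at an unadjusted p under 0.05 (5.58% of all genes).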
